A study of Mus musculus with 8 samples.

Results

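The genes described here encode core proteins of the spliceosome and the main families of splicing regulators. They were taken by name, as every probe whose gene name on the array began with Srsf, Sfrs, Sf3a, Sf3b, Snrp, Lsm and a digit, U2af, Prpf, Hnrnp or Hnrp. This gave 81 genes with 131 probes, of 36373 genes with 55681 probes on the array. They fall into 6 classes: 13 SR proteins, 20 hnRNPs, 11 subunits of SF3a, SF3b and U2AF, 12 Sm and other U snRNP proteins, 12 LSm proteins and 13 PRPF factors. The array's older names put 2 SR-related genes among the SR proteins: Srek1, which the array calls Srsf12, and Pnisr, which it calls Sfrs18, while the gene now named Srsf12 stands there as Srsf13b.

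Splicing removes introns from precursor mRNA in a particle built from small nuclear RNAs and proteins. U1 and U2 snRNPs mark the ends of the intron with the help of U2AF, SF3a and SF3b, the U4/U6.U5 tri-snRNP then joins, and the PRPF proteins and the Prp19 complex drive the rearrangements that make it active. Sm and LSm proteins form rings around the snRNAs. SR proteins bind exons and mostly favour their inclusion, hnRNPs coat the transcript and often repress sites, and the balance of both families shapes the many tissue-specific exons of developing neurons.

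The samples were 4 arrays of KD d6 cells and 4 arrays of Control d6 cells, mouse embryonic stem cells taken through neural induction to day 6. Both groups carried a short hairpin RNA, directed against Zrf1 in KD d6 and a control hairpin in Control d6, and the labels call the cells RGC-like neural progenitors. Nothing in the labels says that replicates of a group came from separate cultures. The deposited array names tie KD d6 replicates 1 and 2 to 1 number and replicates 3 and 4 to another. In each of these pairs 1 array name also holds the letters TR, so a pair may be repeat readings of 1 culture. The p-values may therefore measure a spread that is partly technical. Every value is a log2 signal relative to the 75th percentile of its array, so 0 is that percentile, and changes are KD d6 minus Control d6 on the log2 scale, with their standard error. A probe was called when limma's adjusted p, taken over all tested probes, was under 0.05. Of 29097 probes tested (21752 genes), 128 belonged to the splicing genes, all 81 of which kept at least 1 probe. All 128 were well above background on all 8 arrays. One further probe each of Hnrnpa2b1, Snrpn and Snrpc was too dim to test.

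The targeted gene, now named Dnajc2, a ribosome-associated J-domain chaperone that also acts on chromatin, was read by a probe at chr5:21272454-21272513 (mm9). It had log2 signals of -2.00, -1.90, -2.34 and -2.35 on KD d6 arrays 1 to 4, against 1.94, 2.07, 2.05 and 2.22 on Control d6 arrays 1 to 4. The groups did not overlap, and the fall was 18.6-fold (-4.22 ± 0.12, limma adjusted p = 1.35e-07). On each array 53.4% to 60.3% of 59305 spots were well above background, the 75th percentile lay between 428 and 618 intensity units, and no spot was saturated. Many marker genes differed between the groups. Over all genes, 29.5% were called lower and 27.8% higher. The 10 neural progenitor markers summed to 36.2 to 37.1 times the 75th percentile on KD d6 arrays and 157 to 160 times on Control d6 arrays (8 fell, 0 rose). Endoderm markers, 9 of 10 tested, summed to 11.2 to 12.3 times on KD d6 arrays and 2.10 to 2.63 times on Control d6 arrays (9 rose), with Apoa1 not well above background. Mesoderm and fibroblast markers, 6 of 8 tested, summed to 11.3 to 12.3 times on KD d6 arrays and 5.82 to 6.08 times on Control d6 arrays (5 rose), with T and Mixl1 not well above background. The endoderm markers Afp, Gata4, Sox7, Cubn and Ttr, and Pdgfra among the mesoderm markers, were dim on some or all Control d6 arrays. They were tested only because the KD d6 arrays were well above background, so their rises are no independent evidence. Of 8 neuronal markers 2 rose (Stmn2 and Snap25) and 6 fell, yet they summed to 18.1 to 21.5 times on KD d6 arrays and 13.7 to 16.7 times on Control d6 arrays. In the other direction, the progenitor marker Fabp7 and the neuronal marker Dcx were dim on most or all KD d6 arrays. Both were tested only because the Control d6 arrays were well above background. Of 8 pluripotency markers 3 rose and 3 fell, and they summed to 385 to 440 times on KD d6 arrays and 451 to 511 times on Control d6 arrays. Most of that sum was Dppa5a, which was not called (mean log2 signal 8.63 in KD d6 and 8.67 in Control d6). Nanog was 5.54-fold, Esrrb 3.48-fold and Zfp42 1.9-fold lower, while Tdgf1 was 1.94-fold, Fgf4 1.5-fold and Klf4 1.47-fold higher. The part of this difference in cell markers in the splicing results was not tested, and in such bulk samples fewer cells of a type and less RNA per cell cannot be told apart.

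Splicing genes were mostly lower after the knockdown. Of the 128 tested probes 82 fell, 5 rose and 41 were not called, and the median change was -0.45, beside a median of 0.02 over all tested probes. Of all tested probes 56.8% were called, 29.1% lower and 27.8% higher, so the splicing probes were called lower in a larger share (64.1%) and higher in a smaller one (3.91%), with no test made of that difference. All 4 KD d6 arrays lay below all 4 Control d6 arrays for 82 splicing probes (27.7% of all tested probes did so) and above them for 6 (26.3% of all tested probes). A called fall of at least 2-fold was seen for 20 probes, against 8.09% of all tested probes, and no splicing probe had a called rise of at least 2-fold, against 10% of all tested probes. With the brightest tested probe standing for each gene, 54 of 81 genes fell, 4 rose and 23 were not called, with a median of -0.48. Over all genes 57.3% were called, 29.5% lower and 27.8% higher, with a median of 0.02. The KD d6 arrays lay below the Control d6 arrays in 55 splicing genes (28.4% of all genes) and above them in 5 (26.5% of all genes), 10 splicing genes fell at least 2-fold (7.88% of all genes) and none rose at least 2-fold (9.89% of all genes).

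The change was of like size on every array and slide. Relative to the Control d6 mean, the median over the 128 probes was -0.48, -0.45, -0.43 and -0.47 on KD d6 arrays 1 to 4, against -0.04, 0.02, 0.04 and 0.00 on Control d6 arrays 1 to 4. Within slides 1, 2 and 3, each of which held arrays of both groups, the median was -0.50, -0.46 and -0.44. Slides 1 and 3 held only 1 array of each group. Some classes varied more between slides 1, 2 and 3. Their medians were 0.09, -0.15 and -0.05 for Sm and U snRNP proteins, -0.45, -0.42 and -0.22 for LSm proteins and -0.70, -0.47 and -0.54 for hnRNPs. All 87 called splicing probes kept their sign on the 3 slides, but so did 16416 of all 16538 called probes. Control d6 array 3 stood somewhat apart among its group. The SD of its difference from the other Control d6 arrays over splicing probes was 0.238 to 0.279, against 0.107 to 0.164 among those other arrays, 0.133 to 0.252 between KD d6 arrays and 0.491 to 0.602 between arrays of different groups. Without it, 81 of the 82 lower calls and all 5 higher calls held.

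**Figure D1:**
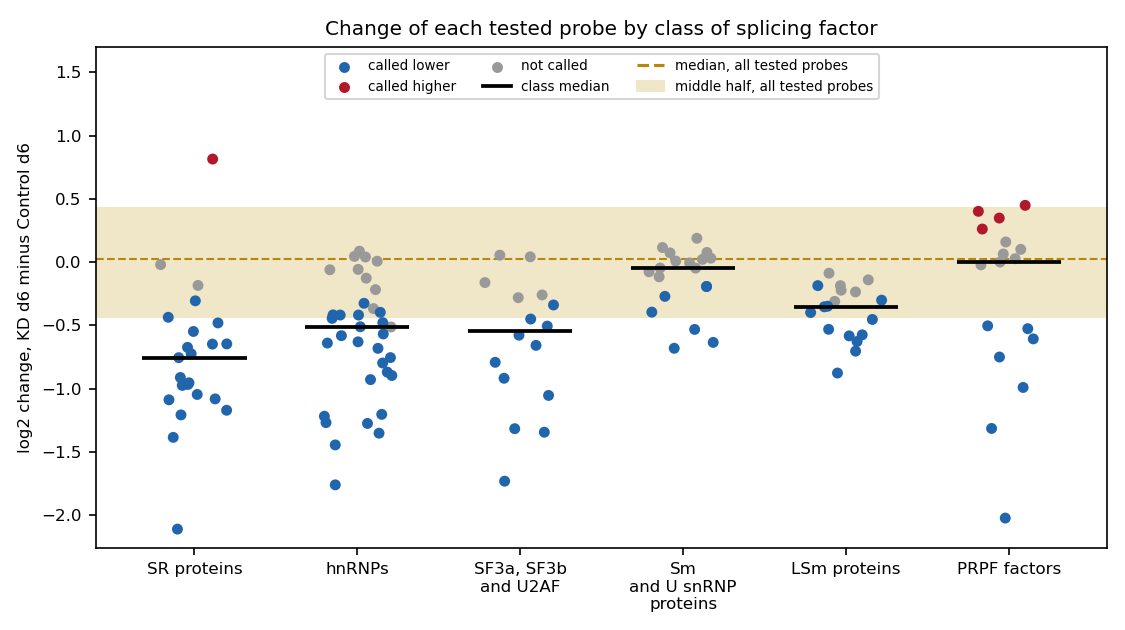
Change of each of the 128 tested probes (log2, KD d6 minus Control d6) by class, coloured by call, with the class median as a black line, over a band from the lower to the upper quartile of all 29097 tested probes. SR proteins, hnRNPs and the SF3a, SF3b and U2AF group lie mostly below the band's centre, with medians of -0.76, -0.51 and -0.54, while the Sm and PRPF medians are -0.05 and 0.00.

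Transcripts of most SR proteins fell. Of their 23 probes 20 were called lower (87%, against 29.1% of all tested probes), 1 higher (4.35%, against 27.8%) and 2 not. The median was -0.76, and of 13 genes 11 fell (84.6%, against 29.5% of all genes). Srsf6, a regulator of exon inclusion in many transcripts, changed most and was read by 2 probes 1944 bases apart, whose first 30 of 60 bases are shown because they gave unequal falls within 1 gene, on the plus strand of mm9.

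Srsf6 upstream probe, chr2:162760546-162760605: taggcagttactcttccgagtttatactcg
Srsf6 downstream probe, chr2:162762490-162762549: gcagaagtgactgacttaaagtgttttagt

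The upstream Srsf6 probe had log2 signals of 2.53, 2.54, 2.46 and 2.58 on KD d6 arrays 1 to 4, against 4.72, 4.72, 4.60 and 4.51 on Control d6 arrays 1 to 4. It fell 4.32-fold (-2.11 ± 0.07, limma adjusted p = 2.55e-07), and the groups did not overlap. The splicing genes given with full values, here and below, were chosen among called genes whose brightest probe had no overlap. For those probes the lack of overlap follows from the choice and adds no evidence. The downstream probe read 1.86, 2.06, 2.02 and 1.92 on KD d6 arrays 1 to 4, against 3.39, 3.37, 3.24 and 3.40 on Control d6 arrays 1 to 4, also without overlap, for a change of -1.39 ± 0.07 (adjusted p = 1.72e-06). Srsf1, the founding member of the family and an essential factor for the choice of splice sites, had 3.39, 3.41, 3.55 and 3.54 on KD d6 arrays 1 to 4, against 4.73, 4.60, 4.29 and 4.61 on Control d6 arrays 1 to 4. Control d6 array 3 was the lowest of its group and still above every KD d6 array. The fall was 2.13-fold (-1.09 ± 0.10, adjusted p = 3.95e-05), and its other 2 probes changed by -1.17 and -1.21. Srsf2, a component of nuclear speckles that binds exonic enhancers, had 3.40, 3.23, 2.86 and 3.02 on KD d6 arrays 1 to 4, against 4.17, 3.95, 4.27 and 4.01 on Control d6 arrays 1 to 4. Its KD d6 arrays were spread from 2.86 to 3.40, all below the lowest Control d6 array (change -0.97 ± 0.13, 1.97-fold lower, adjusted p = 0.000297).

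Srsf3 and Srsf7, closely related adaptors that also take part in mRNA export, fell too. The 3 Srsf3 probes changed by -0.72, -0.91 and -1.08, and the brightest lay between 5.34 and 5.62 on the KD d6 arrays and between 6.13 and 6.30 on the Control d6 arrays. The brightest Srsf7 probe changed by -0.76 ± 0.09 (adjusted p = 0.000177). The other Srsf7 probe changed by -0.65 ± 0.20 (adjusted p = 0.0254), but its groups overlapped and it was called in 8 of 21 fits. Srsf10, a repressor of splicing once dephosphorylated in human cells, changed by -0.48 on its brightest probe and by -0.95 and -0.97 on the other 2. Falls were also called for Srsf5 (-0.67), Srek1 (-0.65), Srsf9 (-0.55), Srsf4 (-0.44) and Pnisr (-0.31), the last with an adjusted p of 0.0252 and called in 12 of 21 fits. Srsf11 was not called: its brightest probe lay between 4.65 and 4.95 on the KD d6 arrays and between 4.72 and 4.91 on the Control d6 arrays, and the 95% interval of the change was -0.22 to 0.18.

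Srsf12 was the one SR gene that rose. Its probe at chr4:33319990-33320049 (mm9) had -0.04, -0.14, -0.46 and -0.46 on KD d6 arrays 1 to 4, against -1.09, -1.21, -0.97 and -1.09 on Control d6 arrays 1 to 4, so the groups did not overlap, with KD d6 arrays 1 and 2 higher than 3 and 4. The rise was 1.76-fold (0.81 ± 0.12, adjusted p = 0.000405), and within slides 1, 2 and 3 it was 1.17, 0.73 and 0.63.

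Among hnRNPs 25 of 35 probes fell (71.4%, against 29.1% of all tested probes), none rose (against 27.8%) and 10 were not called. The median was -0.51, and 15 of 20 genes fell (75%, against 29.5% of all genes). Hnrnpm, a binder of GU-rich RNA that regulates exons in epithelial and mesenchymal cells, had 4.46, 4.34, 4.54 and 4.48 on KD d6 arrays 1 to 4, against 6.16, 6.26, 6.25 and 6.19 on Control d6 arrays 1 to 4 at chr17:33783252-33783311 (mm9). It fell 3.39-fold (-1.76 ± 0.07, limma adjusted p = 4.3e-07), and the groups did not overlap. Hnrnpu, also known as scaffold attachment factor A, which binds chromatin-associated RNA, had 4.02, 3.89, 3.85 and 3.93 on KD d6 arrays 1 to 4, against 5.39, 5.41, 5.34 and 5.34 on Control d6 arrays 1 to 4. It was 2.72-fold lower (-1.45 ± 0.06, adjusted p = 7.81e-07), and its groups did not overlap. Hnrnpr, an RNA-binding protein with a known role in the axons of motor neurons, had 3.42, 3.44, 3.51 and 3.35 on KD d6 arrays 1 to 4, against 4.61, 4.76, 4.93 and 4.83 on Control d6 arrays 1 to 4. It was 2.55-fold lower (-1.35 ± 0.08, adjusted p = 3.52e-06), again without overlap.

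Several further hnRNPs, chosen after their values were seen, also fell. Hnrnpd, which promotes decay of mRNAs with AU-rich elements, lay between 4.14 and 4.36 on the KD d6 arrays and between 5.28 and 5.78 on the Control d6 arrays (change -1.27 ± 0.11, adjusted p = 2.77e-05). Hnrnph1, which binds runs of G, lay between 4.95 and 5.21 on the KD d6 arrays and between 6.21 and 6.34 on the Control d6 arrays (change -1.20 ± 0.08, adjusted p = 4.92e-06). Both were free of overlap. Hnrnpdl, a relative of Hnrnpd, changed by -0.80 and -1.28 on its 2 probes, and Hnrnpab by -0.87 and -1.22. Hnrnpl and its paralogue Hnrnpll, which recognise CA repeats, changed by -0.93 and -0.68, each with groups that did not overlap. Falls under 1 log2 unit were also called for the brightest probes of Hnrnpa0 (-0.76), Hnrnph2 (-0.63), Hnrnpa2b1 (-0.58), Hnrnpul2 (-0.57), Hnrnpul1 (-0.48) and Hnrnpf (-0.42).

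The hnRNPs that were not called by their brightest probe were Hnrnpa1, Hnrnpa3, Hnrnpc, Hnrnph3 and Hnrnpk. Hnrnpc, which binds U tracts and competes with U2AF there, lay between 7.03 and 7.16 on the KD d6 arrays and between 6.96 and 7.14 on the Control d6 arrays, with a 95% interval of -0.12 to 0.21 for its change. Hnrnpa1, a widely acting splicing repressor, lay between 5.25 and 5.80 on the KD d6 arrays and between 5.55 and 6.39 on the Control d6 arrays, and Control d6 array 3 was the highest of the 8 arrays. Its change of -0.37 ± 0.20 was not called (adjusted p = 0.156), whereas its other probe fell by 0.51 on the log2 scale (adjusted p = 0.00664). Hnrnpk, a poly-C binder, had 1 probe not called and 2 that fell, by 0.45 and 0.40 on the log2 scale. Of 7 Hnrnpa3 probes 2 fell, both with a change of -0.42, and 5 were not called, with changes from -0.51 to 0.04. Hnrnpa1 and Hnrnpa3 have processed pseudogene copies in the genome, and whether their probes also read such copies was not tested.

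**Figure D2:**
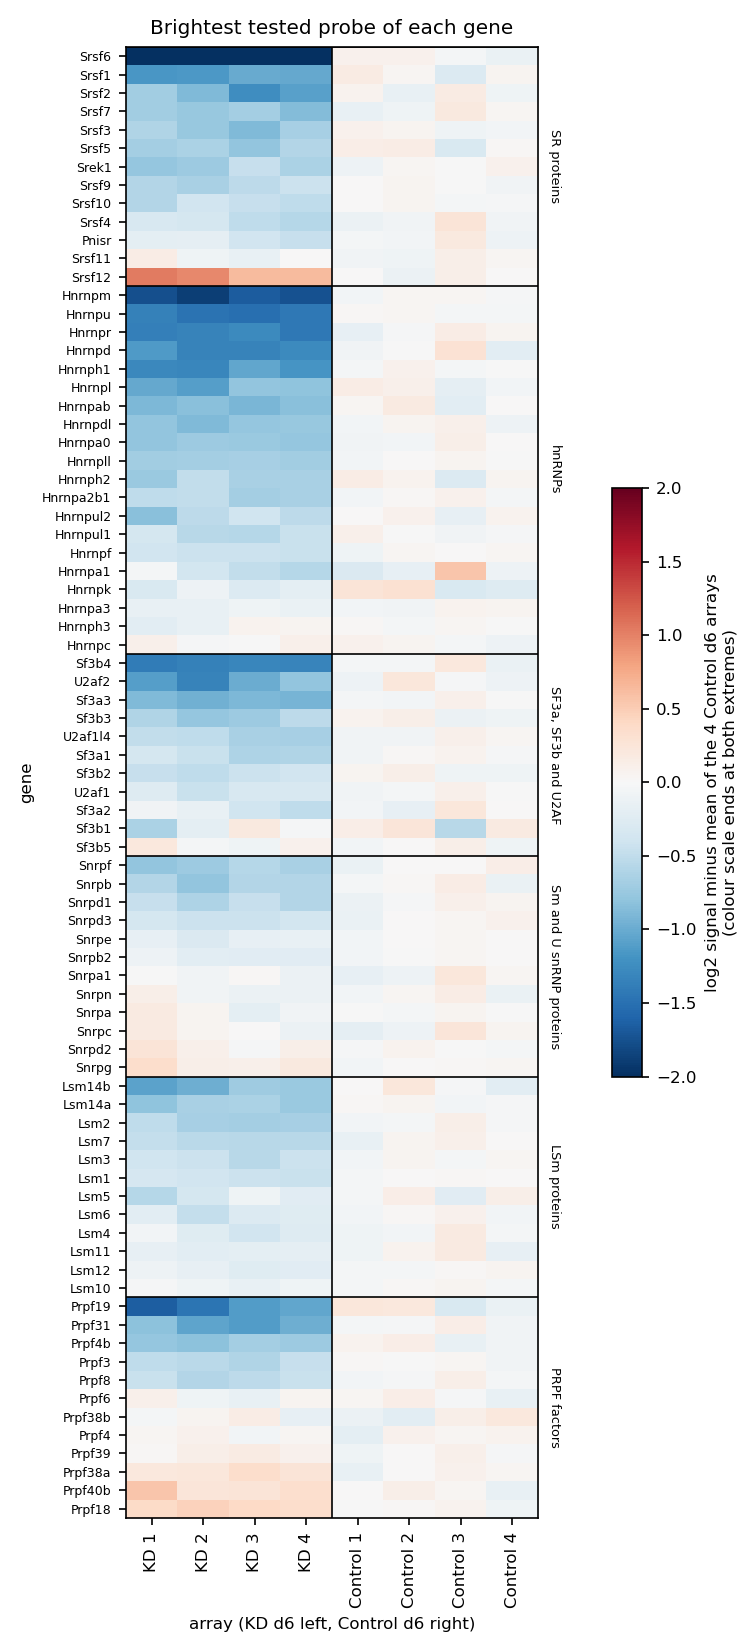
Brightest tested probe per gene (rows, by class and then by change; 1 gene is not shown) on KD d6 arrays (left) and Control d6 arrays (right), as log2 signal minus the mean of the 4 Control d6 arrays, with colours ending at -2 and 2. Blue cells fill all 4 KD d6 columns for most SR, hnRNP, SF3 and LSm genes, and red cells stand on the KD d6 side for Srsf12, Prpf18, Prpf40b and Prpf38a.

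In the machinery that recognises the branch point and the end of the intron, 11 of 16 probes fell and none rose. The share that fell was 68.8%, against 29.1% of all tested probes, of which 27.8% rose. The median was -0.54, and 8 of 11 genes fell (72.7%, against 29.5% of all genes). Sf3b4, an SF3b subunit that contacts the transcript just upstream of the branch point, had 3.21, 3.25, 3.31 and 3.28 on KD d6 arrays 1 to 4, against 4.57, 4.56, 4.82 and 4.48 on Control d6 arrays 1 to 4 at chr3:95981191-95981250 (mm9). It fell 2.54-fold (-1.34 ± 0.08, limma adjusted p = 4.05e-06), its groups did not overlap, and its other probe changed by -1.73. U2af2, the large U2AF subunit, which binds the polypyrimidine tract, had 0.91, 0.67, 1.01 and 1.22 on KD d6 arrays 1 to 4, against 1.91, 2.23, 1.98 and 1.90 on Control d6 arrays 1 to 4. The KD d6 arrays were more scattered here than for Sf3b4, but the groups did not overlap (2.08-fold lower, -1.05 ± 0.13, adjusted p = 0.000188). Sf3a3, a subunit of SF3a, had 4.80, 4.71, 4.77 and 4.75 on KD d6 arrays 1 to 4, against 5.63, 5.63, 5.77 and 5.67 on Control d6 arrays 1 to 4. It was 1.89-fold lower (-0.92 ± 0.06, adjusted p = 6.23e-06), with a gap between the groups.

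The small U2AF subunit U2af1, which recognises the AG at the intron's end, changed less: -0.34 ± 0.07 on its brightest probe (adjusted p = 0.00349), while its other probe was not called. Its paralogue U2af1l4 changed by -0.58 and -0.79. Of the other SF3 subunits, Sf3b3 (-0.66), Sf3a1 (-0.51) and Sf3b2 (-0.45) fell. Sf3b1, the large subunit around the branch point adenosine, was not called: it lay between -0.22 and 0.61 on the KD d6 arrays and between -0.15 and 0.65 on the Control d6 arrays, and the wide 95% interval of -0.69 to 0.36 leaves its change unresolved. Sf3a2 (-0.28, adjusted p = 0.0915) was not called either, nor were the 2 probes of Sf3b5, with an interval of -0.16 to 0.24 for the brighter.

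Among the genes for proteins of the snRNP particles themselves whose names begin with Snrp, most probes were not called. Of 19 Sm and U snRNP probes 7 fell (36.8%, against 29.1% of all tested probes), none rose (against 27.8% of all tested probes) and 12 were not called. The median was -0.05, and 6 of 12 genes fell (50%, against 29.5% of all genes). In the Sm ring, Snrpf had 4.45, 4.51, 4.66 and 4.59 on KD d6 arrays 1 to 4, against 5.10, 5.23, 5.23 and 5.36 on Control d6 arrays 1 to 4. The groups did not overlap, and it was 1.6-fold lower (-0.68 ± 0.08, limma adjusted p = 0.000139). Snrpb, the ring's SmB subunit, had 4.60, 4.39, 4.58 and 4.58 on KD d6 arrays 1 to 4, against 5.13, 5.20, 5.33 and 5.04 on Control d6 arrays 1 to 4. It was 1.55-fold lower (-0.63 ± 0.09, adjusted p = 0.000317), with KD d6 array 2 the lowest. Snrpd1 had 6.65, 6.48, 6.64 and 6.51 on KD d6 arrays 1 to 4, against 6.98, 7.07, 7.20 and 7.15 on Control d6 arrays 1 to 4, again without overlap (1.45-fold lower, -0.53 ± 0.08, adjusted p = 0.000448). Snrpd3 changed by -0.40, called in all 21 fits. The brightest Snrpe probe changed by -0.19 (adjusted p = 0.0274), a call made in 10 of 21 fits, and its other probe (-0.12) was not called in any.

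The last of the ring's proteins, Snrpd2 and Snrpg, were not called on any of their 5 probes. The brightest Snrpg probe lay between 8.52 and 8.78 on the KD d6 arrays and between 8.37 and 8.46 on the Control d6 arrays, so its KD d6 arrays were all above the controls, with a change of 0.19 ± 0.08 and an adjusted p of 0.0645. Snrpd2 had an interval of -0.06 to 0.29. Snrnp70, a U1 snRNP protein outside the name rule, changed by -0.41 (limma adjusted p = 0.00363). Of the other proteins of U1 snRNP, Snrpa and Snrpc were not called (-0.21 to 0.20 and -0.23 to 0.29). Of those of U2 snRNP, Snrpb2 changed by -0.19 (adjusted p = 0.0264), a call made in 8 of 21 fits with an adjusted p of up to 0.545, and Snrpa1 was not called. Snrpn, the imprinted neuronal paralogue of Snrpb, was not called on either tested probe, with an interval of -0.25 to 0.15 for the brighter. The Sm count moved with the fit: 4 in place of 7 probes fell when the replicate number was a block, when the arrays of either KD d6 pair were left out, or when each pair was averaged.

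LSm proteins gave smaller but frequent falls: 12 of 18 probes fell (66.7%, against 29.1% of all tested probes) and none rose (against 27.8%). The median was -0.35, and 8 of 12 genes fell (66.7%, against 29.5% of all genes). The largest were in Lsm14b and Lsm14a, RNA-binding proteins of P-bodies that act in mRNA storage and translational repression. Lsm14b had 2.36, 2.45, 2.72 and 2.69 on KD d6 arrays 1 to 4, against 3.43, 3.66, 3.41 and 3.22 on Control d6 arrays 1 to 4 and was 1.84-fold lower (-0.88 ± 0.12, limma adjusted p = 0.000366). Lsm14a had 2.60, 2.76, 2.77 and 2.66 on KD d6 arrays 1 to 4, against 3.43, 3.46, 3.35 and 3.37 on Control d6 arrays 1 to 4 and was 1.63-fold lower (-0.70 ± 0.07, adjusted p = 4.37e-05). Neither gene's groups overlapped. Lsm2, a subunit of both the nuclear ring on U6 RNA and the cytoplasmic ring in mRNA decay, had 5.55, 5.40, 5.38 and 5.40 on KD d6 arrays 1 to 4, against 6.01, 6.02, 6.18 and 6.03 on Control d6 arrays 1 to 4, with 1 array of each group above the other 3. It was 1.55-fold lower (-0.63 ± 0.07, adjusted p = 0.000117), and its dimmer probe was not called.

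Of the other ring subunits Lsm7 (-0.53), Lsm3 (-0.45) and Lsm6 (-0.30, with 4 of 4 probes called) fell, and so did Lsm1 (-0.40), which belongs to the cytoplasmic ring alone. Lsm4 (-0.24) and Lsm5 (-0.31) just missed the threshold, each with an adjusted p of 0.0639. Lsm10 and Lsm11, which replace Sm proteins in the U7 snRNP that matures histone mRNA, were not called (-0.23 to 0.05 and -0.39 to 0.01). Lsm12 changed by -0.19 (adjusted p = 0.0337), and this call was made in 5 of the 21 fits run. It was lost with a slide or replicate block and without Control d6 array 3, and in the authors' deposited log2 values the change was near 0 (-0.01, limma adjusted p = 0.952).

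Of 17 PRPF probes 7 fell (41.2%, against 29.1% of all tested probes), 4 rose (23.5%, against 27.8% of all tested probes) and 6 were not called, with a median of 0.00, and of 13 genes 6 fell and 3 rose. Prpf19, the ubiquitin ligase at the heart of the Prp19 complex, had 1.12, 1.31, 1.65 and 1.73 on KD d6 arrays 1 to 4, against 3.00, 2.98, 2.46 and 2.63 on Control d6 arrays 1 to 4 at chr19:10978169-10978228 (mm9). Its arrays were widely scattered in both groups but did not overlap (2.49-fold lower, -1.32 ± 0.18, limma adjusted p = 0.000303). Prpf31, which tethers U4/U6 to U5 in the tri-snRNP, had 4.78, 4.55, 4.48 and 4.61 on KD d6 arrays 1 to 4, against 5.56, 5.57, 5.73 and 5.53 on Control d6 arrays 1 to 4. It was 1.99-fold lower (-0.99 ± 0.09, adjusted p = 2.27e-05), without overlap. The tri-snRNP proteins Prpf3 (-0.53) and Prpf8, the central scaffold (-0.50), also fell, while the tri-snRNP proteins Prpf4 and Prpf6 were not called (-0.16 to 0.21 and -0.23 to 0.18).

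Prpf4b, a kinase that phosphorylates tri-snRNP proteins on the way to an active spliceosome, showed the widest gap between probes of 1 gene. Its 2 probes lie 2948 bases apart on the plus strand of mm9, and their first 30 of 60 bases are shown to mark the stretches that were read.

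Prpf4b upstream probe, chr13:34991032-34991091: gttgcagataatgacattacgccttatctt
Prpf4b downstream probe, chr13:34993980-34994039: acaacattcagtacactgaaggtaagctaa

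The upstream Prpf4b probe, the brighter, had -0.11, -0.17, -0.03 and -0.07 on KD d6 arrays 1 to 4, against 0.73, 0.79, 0.51 and 0.59 on Control d6 arrays 1 to 4 (1.68-fold lower, -0.75 ± 0.08, adjusted p = 8.35e-05). The downstream probe had -1.72, -1.46, -1.77 and -1.62 on KD d6 arrays 1 to 4, against 0.57, 0.66, -0.14 and 0.42 on Control d6 arrays 1 to 4, a change of -2.02 ± 0.17 (adjusted p = 2.26e-05). Neither probe's groups overlapped, and the downstream probe fell by 1.27 log2 units more. Which transcript forms each probe reads was not analysed here.

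The 3 PRPF genes that rose did so by little. Prpf18, a factor of the second catalytic step, had 2.09, 2.15, 2.10 and 2.05 on KD d6 arrays 1 to 4, against 1.69, 1.72, 1.76 and 1.62 on Control d6 arrays 1 to 4 (1.32-fold higher, 0.40 ± 0.06, adjusted p = 0.000648). Prpf40b, a homologue of the yeast U1 snRNP protein Prp40, had 2.14, 1.82, 1.84 and 1.92 on KD d6 arrays 1 to 4, against 1.58, 1.69, 1.61 and 1.43 on Control d6 arrays 1 to 4 (1.27-fold higher, 0.35 ± 0.10, adjusted p = 0.0138), and its other probe changed by 0.45. Prpf38a, which joins with the tri-snRNP, had 3.57, 3.59, 3.71 and 3.61 on KD d6 arrays 1 to 4, against 3.21, 3.37, 3.45 and 3.40 on Control d6 arrays 1 to 4 (1.2-fold higher, 0.26 ± 0.07, adjusted p = 0.016). The groups did not overlap in any of the 3, but all 3 calls were lost when arrays were scaled to their median (adjusted p of 0.124, 0.233 and 0.537) and on slide 2 alone (0.0535, 0.131 and 0.212). Their relatives Prpf38b and Prpf39 were not called.

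**Figure D3:**
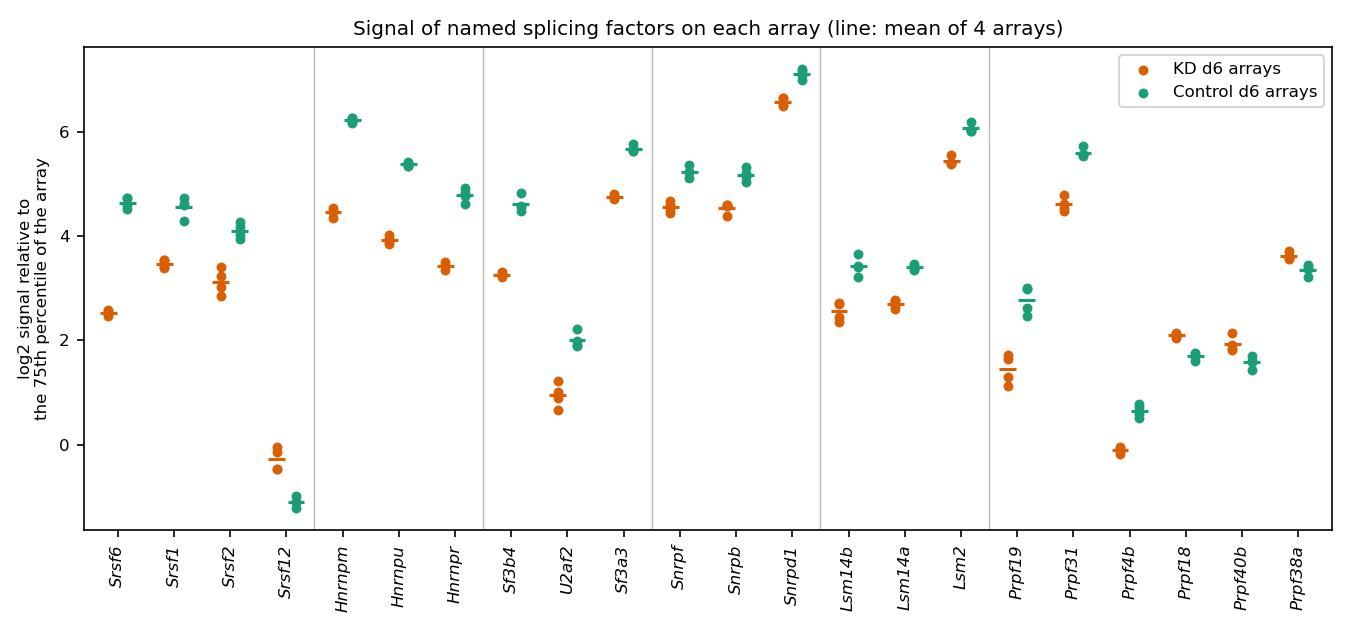
Log2 signal, with the array's own 75th percentile at 0, for the named splicing genes, with 4 KD d6 arrays (left, orange) and 4 Control d6 arrays (right, green) per gene and a line at each mean; grey lines divide the 6 classes. The genes were chosen among those without overlap, the widest gaps are at Srsf6 and Hnrnpm, and Srsf12, Prpf18, Prpf40b and Prpf38a have the KD d6 arrays on top.

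Within a gene, the calls of its probes were mostly alike. Of 35 genes with more than 1 tested probe, 18 had all probes called lower, 1 (Prpf40b) had all called higher, 10 had none called and 6 had some called lower and the rest not called. The same counts were not made over all genes of the array, so this likeness is not given as a trait of splicing genes. No gene had probes called in opposite directions, for which the 5 higher calls among the 128 probes left little room. The median distance between the lowest and highest change within a gene was 0.16 log2 units, and the widest were 1.27 in Prpf4b and 0.73 in Srsf6. In 31 genes the outermost probes lay at least 200 bases apart, and the downstream one had the more negative change in 17, the upstream one in the others. The probes of 3 pairs, in Lsm6, Snrpa1 and Snrpd2, share 25, 53 and 54 bases of sequence, so they are not independent readings.

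**Figure D4:**
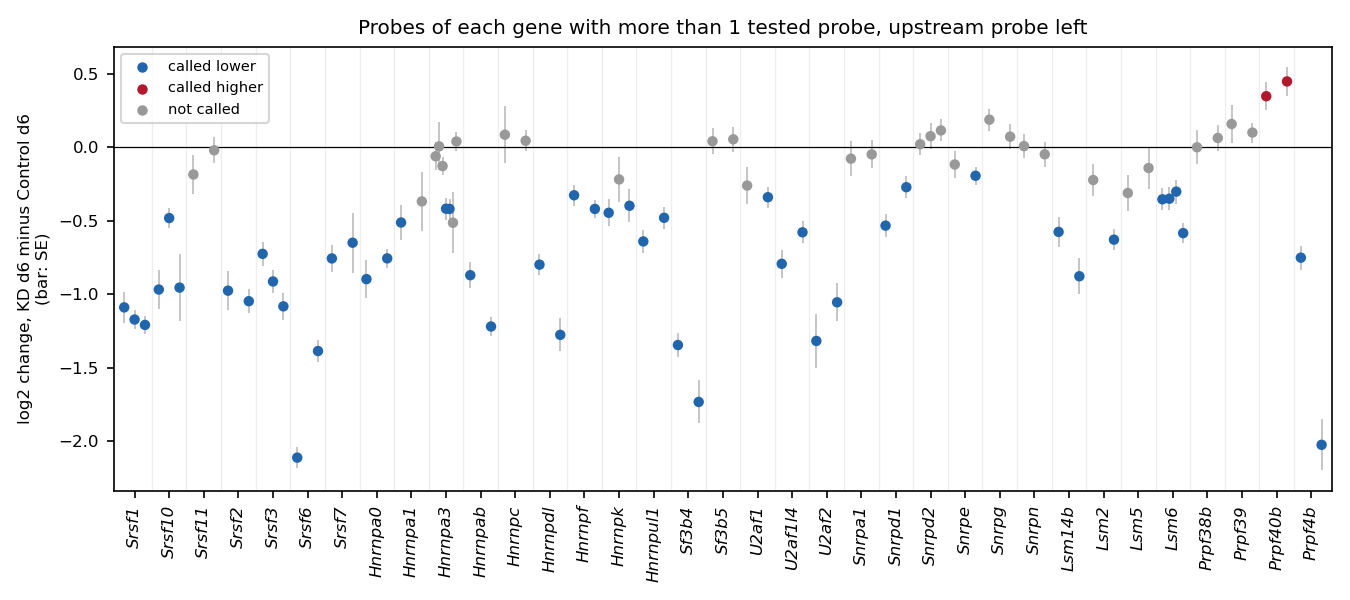
Log2 change (KD d6 minus Control d6) with its standard error for every probe of the 35 genes with more than 1 tested probe, upstream probe left, coloured by call. The probes of a gene mostly lie together, with the widest ranges at Prpf4b, Srsf6 and Hnrnpa3.

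The size of the fall depended on how arrays were scaled, and in 2 classes so did its sign. The median of all tested probes was 0.02 with scaling to the 75th percentile, -0.12 with scaling to the median, and 0.00 both after normexp and quantile normalization and in the authors' deposited log2 values. The median over splicing probes was -0.45, -0.59, -0.35 and -0.35 in the same order, and it lay below that of all probes each time. Of all called probes 48.9% were higher with the 75th percentile and 38% with the median. SR proteins, hnRNPs, LSm proteins and the SF3a, SF3b and U2AF group had negative medians under all 4 scalings. The Sm class had -0.05, -0.19, 0.05 and 0.03, and the PRPF class 0.00, -0.14, 0.10 and 0.10, so no direction is given for either class as a whole. No called splicing probe changed sign under any of these scalings.

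**Figure D5:**
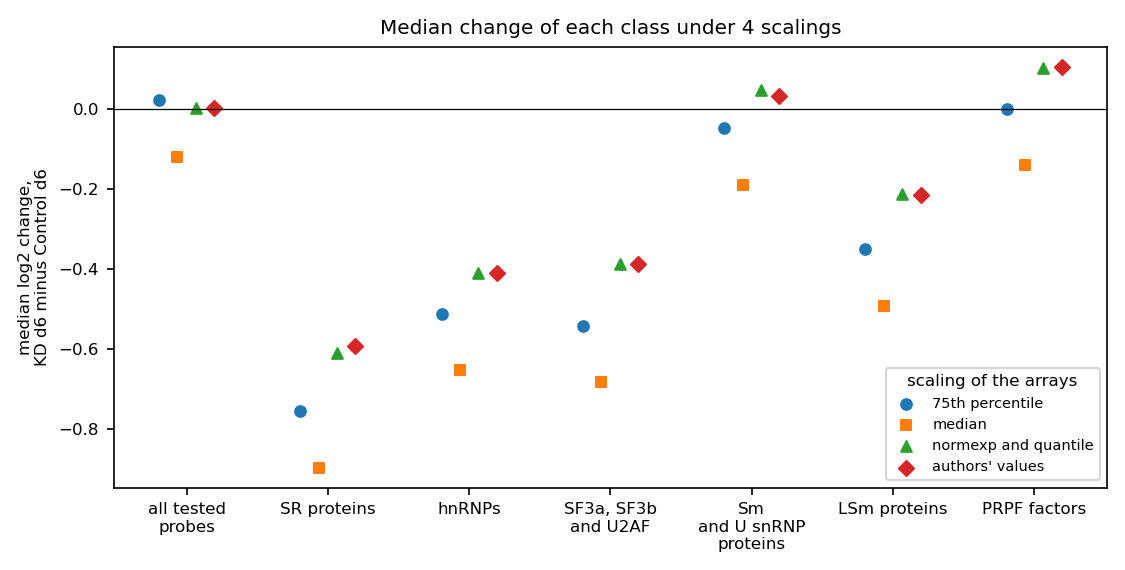
Median log2 change (KD d6 minus Control d6) of all tested probes and of each class under 4 scalings of the arrays. SR proteins stay between -0.90 and -0.59 and hnRNPs between -0.65 and -0.41, while the Sm and PRPF medians cross 0.

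Other splicing genes outside the named families, were taken from 5 lists with 131 genes on the array. Of 126 tested 78 fell (61.9%, against 29.5% of all genes), 14 rose (11.1%, against 27.8% of all genes) and 34 were not called, with a median of -0.40. No test was made of the differences in share, here or in the single lists. Of 58 other spliceosome components 35 fell and 3 rose, of 14 genes of snRNP assembly 8 fell and 2 rose, and of 9 exon junction genes 6 fell and 1 rose. Of 16 SR-related proteins and SR kinases 10 fell and 4 rose: Srrm3 and the SR protein kinases Clk1, Clk3 and Clk4. Of 29 tested regulators of alternative splicing 19 fell and 4 rose.

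Among these other genes the largest changes in either direction were mostly in regulators of alternative splicing. Srrm4, which drives the inclusion of neuronal microexons, had -4.81, -4.45, -4.05 and -4.15 on KD d6 arrays 1 to 4, against -0.17, -0.28, 0.29 and 0.09 on Control d6 arrays 1 to 4. It was not well above background on any KD d6 array, so the fall was at least 16.6-fold (limma adjusted p = 7.49e-07, from the dim signals as measured). Ptbp2, the neuronal polypyrimidine tract binder, also fell (2.82-fold lower, adjusted p = 5.88e-07), and Crnkl1, a Prp19-associated protein dim on all KD d6 arrays, fell at least 2.09-fold (adjusted p = 0.000135, likewise from the dim signals). Both Srrm4 and Crnkl1 were tested only because the Control d6 arrays were well above background. Esrp1, a regulator of epithelial exons, had 2.50, 2.29, 2.31 and 2.45 on KD d6 arrays 1 to 4, against 0.73, 0.64, 0.58 and 0.52 on Control d6 arrays 1 to 4 (3.41-fold higher, adjusted p = 7.91e-07). Snrnp48 of the minor spliceosome (3.06-fold, adjusted p = 1.57e-06), Mbnl2 (3.05-fold, adjusted p = 4.45e-07) and Celf4 (2.48-fold, adjusted p = 0.00111) were higher too. The neural progenitor, endoderm and mesoderm markers given above also differed between the groups, and the part of that in these values was not tested.

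The promoters of these genes were searched for 3 short motifs: the ETS core CCGGAAG, the E-box CACGTG and the CRE TGACGTCA, on both strands. The windows run from 250 bases before to 50 bases after the start of RefSeq transcripts (GRCm38.p6), and 91 windows of 68 of the 81 genes were in the table. The ETS core was in 28.6% of the windows of splicing genes, against 8.86% of all 32851 windows and 11.6% of those of protein-coding genes. It was in 31.1% of windows of genes that fell and 26.9% of windows of genes that were not called. Some genes had more than 1 window. Counted by gene, the ETS core was in 30.9% of splicing genes and 12.9% of protein-coding genes. By class the share of windows was 60% for SF3a, SF3b and U2AF (6 of 10) and 46.7% for SR proteins (7 of 15). It was 28.6% for both Sm proteins and PRPF factors (4 of 14 each), 14.8% for hnRNPs (4 of 27) and 9.09% for LSm proteins (1 of 11). The E-box was in 12.1% of windows of splicing genes (11 of 91), against 7.15% of all windows and 7.84% of those of protein-coding genes. The CRE was in 3.3% (3 of 91), against 1.79% and 2.23%. A match describes letters in a window and shows no binding, and its absence says nothing of the factor.

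The 100 bases before the transcript start are shown for 6 genes that fell and hold the ETS core there, to show where it lies, with each match, or its reverse complement, in capitals.

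Srsf5, chr12:80945399-80945498, plus strand: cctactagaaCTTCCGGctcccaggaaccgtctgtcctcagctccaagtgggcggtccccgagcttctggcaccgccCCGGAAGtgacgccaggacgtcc
Srek1, chr13:103774609-103774708, minus strand: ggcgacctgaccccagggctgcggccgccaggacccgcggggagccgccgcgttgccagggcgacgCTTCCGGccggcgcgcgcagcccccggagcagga
Sf3a1, chr11:4160254-4160353, plus strand: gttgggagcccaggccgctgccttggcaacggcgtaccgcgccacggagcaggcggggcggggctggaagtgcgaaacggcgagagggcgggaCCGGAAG
Sf3a3, chr4:124714761-124714860, plus strand: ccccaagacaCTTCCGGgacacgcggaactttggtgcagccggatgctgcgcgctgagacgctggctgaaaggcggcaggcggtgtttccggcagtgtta
Prpf19, chr19:10895131-10895230, plus strand: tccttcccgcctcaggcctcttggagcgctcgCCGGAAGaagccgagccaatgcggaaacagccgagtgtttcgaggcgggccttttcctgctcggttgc
Prpf4b, chr13:34875429-34875528, plus strand: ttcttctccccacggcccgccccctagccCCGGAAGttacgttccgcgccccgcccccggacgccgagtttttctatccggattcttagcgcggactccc

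The match lay 7 bases before the start in Sf3a1, 34 in Srek1, 68 in Prpf19, 71 in Prpf4b and 90 in Sf3a3, counted to its first base, and Srsf5 held 2, at 90 and 23. The core also lay within the same 100 bases in genes that were not called, Sf3a2, Snrpc and Srsf11.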

How the data were processed

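RNA of 8 samples (100 ng each) was labelled with Cy3 and read on 1-colour Agilent arrays of design 028005. Per the file headers, the deposited spot intensity was extracted with Feature Extraction 10.7.3.1 and background-corrected within each array, and probe positions are on mm9. The authors' deposited table of log2 values served as an alternative, whose making no source here describes, and its log2 values correlated at 0.99999 or higher with normexp (offset 50) and quantile normalization. Here outlier spots were removed, spots of a probe averaged, log2 taken and each array's 75th percentile subtracted. A probe entered the test if every array of either group (or of both) had it well above background. The test was limma's moderated one (version 3.58.1, R 4.3.3), two-sided, and p-values were adjusted by Benjamini-Hochberg across the tested probes, with a threshold of 0.05. The brightest tested probe stood for a gene. The number of arrays, 4 per group and perhaps from fewer cultures in KD d6, limits the precision. Where a probe was dim in all KD d6 arrays, the bound uses, per dim array, the higher of its signal and the lowest signal well above background. Current names came from RefSeq for 26300 probes through their accession, for 2044 through the symbol and for 355 through a synonym. The remaining 26982 have the name on the array. The fit was tested on simulated data. The genes named with full values are the up to 3 largest falls and rises per class among called genes without overlap, and up to 4 each way among other splicing genes. The rest were chosen after their values were seen. Some single genes are counted but not reported here by name. The members, lists and motifs were chosen with earlier results of these data known. Exon and UTR annotation was not analysed here, and promoter sequences are RefSeq's, on GRCm38.p6.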

Additional observations from a re-analysis of the deposited data

Results flagged for a closer look

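In 62 groups of 4 arrays, for the targeted gene, the named splicing genes and the other named genes, 1 array lay far from the other 3 in 4 groups, by Dixon's test at the 95% level. Chance gives about 1 such group in 20. Snrpb stood at 4.39 on KD d6 array 2, against 4.58 to 4.60 on the other KD d6 arrays. Lsm2 stood at 5.55 on KD d6 array 1, against 5.38 to 5.40 on the others of that group, and at 6.18 on Control d6 array 3, against 6.01 to 6.03 on the others of that group. Celf4 stood at -0.12 on Control d6 array 2, against 0.84 to 0.90 on the other Control d6 arrays. None of these arrays reached the range of the opposite group.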

How the results depend on the processing

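Of the 82 splicing probes called lower, between 58 (slide 2 alone, which holds 2 arrays a group) and 82 kept the call under every alternative run, and none turned direction. Leaving out 1 array kept 78 to 81 of them and all 5 higher calls. The counts of higher calls were small and moved most. With scaling to the median, 1 splicing probe, 1 gene and 0 PRPF probes rose, and 9 of the other splicing genes in place of 14. Without the filter on dim probes, which tests more probes, 3 probes, 2 genes and 2 PRPF probes rose. On slide 2 alone 1 probe, 1 gene, 0 PRPF probes and 9 other splicing genes rose. Without KD d6 replicates 3 and 4 it was 3 probes, 2 genes and 2 PRPF probes. After normexp and quantile normalization, and in the authors' values, 1 hnRNP probe rose, of Hnrnpa3. Of Sm probes 4 fell, in place of 7, without the filter, on slide 2 alone, with a replicate block, without KD d6 replicates 1 and 2 or 3 and 4, and with the pairs averaged. The cause was not tested. With the replicate block 74 of the 82 lower calls held. Same-numbered arrays deviated together with correlations of 0.106, -0.119, 0.113 and -0.192, so the numbers were not taken to pair the samples. With the file number as a random block (correlation 0.22) all 82 held, and with the pairs averaged 76. Prpf40b and Prpf38a also lost their calls without the filter and without KD d6 replicates 3 and 4, and Prpf38a with the pairs averaged. Without KD d6 replicates 1 and 2 the probe reported for Prpf40b lost its call, and its other probe, then the brighter, kept it. Signal over background did not limit the tested splicing probes, and the dim Srrm4 and Crnkl1 have only a bound.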

Other observations

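Probes of 3 other splicing genes were called in opposite directions within 1 gene. No gene of the core families had such probes, but only 5 of their 128 tested probes were called higher. The share of such genes over the whole array was not counted here. Tardbp, an RNA-binding protein that represses cryptic exons, had 1 probe that fell (-0.98 ± 0.07, limma adjusted p = 1.1e-05), 1 that rose (0.95 ± 0.10, adjusted p = 5.6e-05) and 1 that was not called. Khdrbs1, also known as Sam68, had 1 probe that fell (-0.57) and 1 that rose (0.98), and Luc7l2, a homologue of a yeast U1 snRNP protein, had 2 that fell (-0.44 and -0.45) and 1 that rose (0.82, adjusted p = 0.0427). The transcript forms that these probes read were not analysed here.

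Among the SR protein kinases of the lists, Clk3 rose by 0.66 ± 0.09 (adjusted p = 0.000389), Clk4 by 0.34 (adjusted p = 0.00259) and Clk1 by 0.32 (adjusted p = 0.0248), whereas Clk2 changed by -0.49 (adjusted p = 0.000787) and Srpk1 by -0.53 (adjusted p = 0.00572). In the exon junction complex, Magohb rose (0.76 ± 0.07) while its paralogue Magoh changed by -0.37 ± 0.06 (adjusted p = 0.000931).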
